A study of Mus musculus with 12 samples.

Results

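The Slc25 genes encode the mitochondrial carriers, and their RNA was followed here in mouse retinal pigment epithelium (RPE), the pigmented cell layer behind the retina. The members were all rows of the deposited gene table whose symbol is Slc25a followed by a number, 39 of 13942 genes. RNA was sequenced from RPE of C57BL/6J mice, wild type (WT) or labelled as a conditional knockout of Sox9 (cKO), at the embryonic stage E15.5 and at postnatal day 5 (P5). Each combination of genotype and age makes a group of 3 libraries, 12 libraries in 4 groups. The sources used here do not give the Cre driver, the deleted exons or the way the RPE was separated, nor do they say whether the 3 libraries of a group came from separate animals, so that p-values measure only the spread between these samples. Each value is a gene count after quantile normalisation by the authors, with a lowest value of 50, called the floor here. Every library has the same median of 367.4, and the depth behind the values is unknown.

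Carriers of this family sit in the inner mitochondrial membrane, with few exceptions, and move nucleotides, phosphate, metals, carboxylates, amino acids and cofactors between the cytosol and the matrix. Most are built of repeats of paired membrane helices and are imported by the TIM22 complex. The RPE passes glucose on to the photoreceptors and meets much of its own energy need by oxidation in mitochondria.

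The libraries differed in ways that touch several members. Sox9 itself stood at 932 to 1156 in E15.5 WT, 990.0 to 1034 in E15.5 cKO, 964 to 1499.5 among P5 WT libraries and 2136 to 2928 among those of P5 cKO, so at P5 it goes against the label (limma gave a log2 difference of 1.07 ± 0.17, SE, with an adjusted p of 0.0316), and cKO below always means the libraries labelled cKO. Of 14 RPE markers, 10 were above the floor in every E15.5 library, 14 in every P5 WT library and 13 in every P5 cKO library, where the retinoid isomerase Rpe65 was at the floor. Photoreceptor markers were at or near the floor at E15.5 (summed value of the 15 genes 750.0 to 782) and at P5 spanned 3546 to 112801 among the WT and 3579.7 to 56370.2 among the cKO libraries. Cell cycle markers (15 genes) summed to 21223 to 23151 at E15.5 and to 5491 to 10274 at P5, and erythroid markers (9 genes) to 21189.9 to 28503 and to 4744 to 11706. In bulk RNA of this kind, fewer cells of a type and less RNA per cell cannot be told apart.

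The members lay on 18 chromosomes, and the only 2 with less than a megabase between them were Slc25a29 and Slc25a47, 163 bases apart on chromosome 12. Their longest coding sequences ran from 822 to 2031 bases (median 954) in GENCODE M21 (GRCm38). All 39 were found there by Ensembl identifier, and 35 were above the floor in all 12 libraries. For 14 members another gene lies on the opposite strand. Since the sources used here do not name the strand setting of the counting, reads of such partners cannot be told apart where they lie over the member's exons. The largest share of 50-base stretches found also in transcripts of other genes was that of Slc25a5, 46.6%, in 9 other genes that include Slc25a5-ps. The next was that of Slc25a35, 25.3%, part of it in Rangrf on the opposite strand, so the levels of both are uncertain. Slc25a33 followed with 12.6%, in Gm13068 on the opposite strand, and its level is uncertain too.

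Per kilobase of exon, the same few carriers had the highest RNA values in all 4 groups. These values are of whole libraries, not of RPE cells alone. At E15.5 the 14 skeletal muscle markers summed to 42824 to 81875 and the 14 RPE markers to 24298 to 44693. The part of other tissues in the order of the carriers was not tested. In P5 WT the highest was Slc25a4, the ADP/ATP translocase ANT1, at 4065 ± 367 normalised counts per kb (SD, n = 3), followed by the phosphate carrier Slc25a3 at 1766 ± 39.4 and the ADP/ATP translocase ANT2, Slc25a5, at 1735 ± 183. Slc25a3 and Slc25a5 did not differ beyond their spread in P5 WT, while at E15.5 the order was the same with Slc25a3 at 2083 ± 66.7 and Slc25a5 at 1608 ± 42.9 in WT. The glutathione importer Slc25a39 came next at 765 ± 174 and the oxoglutarate carrier Slc25a11 after it at 672 ± 98.7 per kb in P5 WT, and these ranks held in the other 3 groups. Of the summed per-kb value of all 39 members, Slc25a4 took 23.4% to 25.0% in the E15.5 WT libraries, 22.3% to 26.2% in E15.5 cKO, 28.7% to 31.0% in the P5 WT libraries and, in P5 cKO, 29.2% to 34.4%. The lowest value per kb in P5 WT was that of the folate and flavin carrier Slc25a32 at 17.4 ± 2.9. Values at the floor are upper limits. Members with P5 WT libraries there, such as Slc25a30 (18.7) and Slc25a34 (29.7), may thus lie lower.

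From E15.5 to P5 some carriers rose and others fell. In WT, 7 of the 38 members tested rose and 5 fell, against 15% of all 13523 genes tested that rose and 23.2% that fell, at an adjusted p under 0.05 in limma. In cKO 10 rose and 6 fell, against 17.6% and 26.1% of all genes. The libraries of the ages did not overlap for 17 members in WT (48.7% of all genes) and for 20 in cKO (57.9% of all genes). The median log2 fold change of the members was 0.06 in WT and 0.09 in cKO, beside -0.07 and -0.08 over all genes, and the same medians hold with the genes at the floor set to their bound. The share of members called, in WT 12 of 38 beside 38.2% and in cKO 16 of 38 beside 43.7% of all genes, is thus near that of the whole table. The age comparisons in WT and cKO share no library: 7 members rose and 4 fell in both, 0 were called in opposite directions, and 34 of 38 had the same sign, which 88.8% of all genes tested had too. The interaction of genotype and age called 0 members in limma, beside 0.0592% of all genes, with 0 members at an unadjusted p under 0.05, beside 2.65% of all genes, so no member's age change was shown to differ between the genotypes. Without both P5 libraries of highest photoreceptor signal 10 members rose and 9 fell in WT, beside 22.4% and 29.8% of all genes in that fit, and 11 rose and 7 fell in cKO, beside 21.9% and 29.8%. With the cell cycle marker level, which was lower in all P5 than in all E15.5 libraries, as a term, the signs of Slc25a24, Slc25a13 and Slc25a33 turned in both genotypes and that of Slc25a23 in cKO. In that fit Slc25a24 in WT was a called rise (1.12, adjusted p = 0.0158) and Slc25a33 a called fall in WT (-1.87, adjusted p = 0.00165) and in cKO (-1.55, adjusted p = 0.0031), all by limma. The level of this term left a gap between the ages (mean log2 10.2 to 10.4 at E15.5 and 8.18 to 9.16 at P5). For every member, a fit with it thus cannot separate its part from that of age. The turned signs and the calls it ended below show no direction of change.

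**Figure D1:**
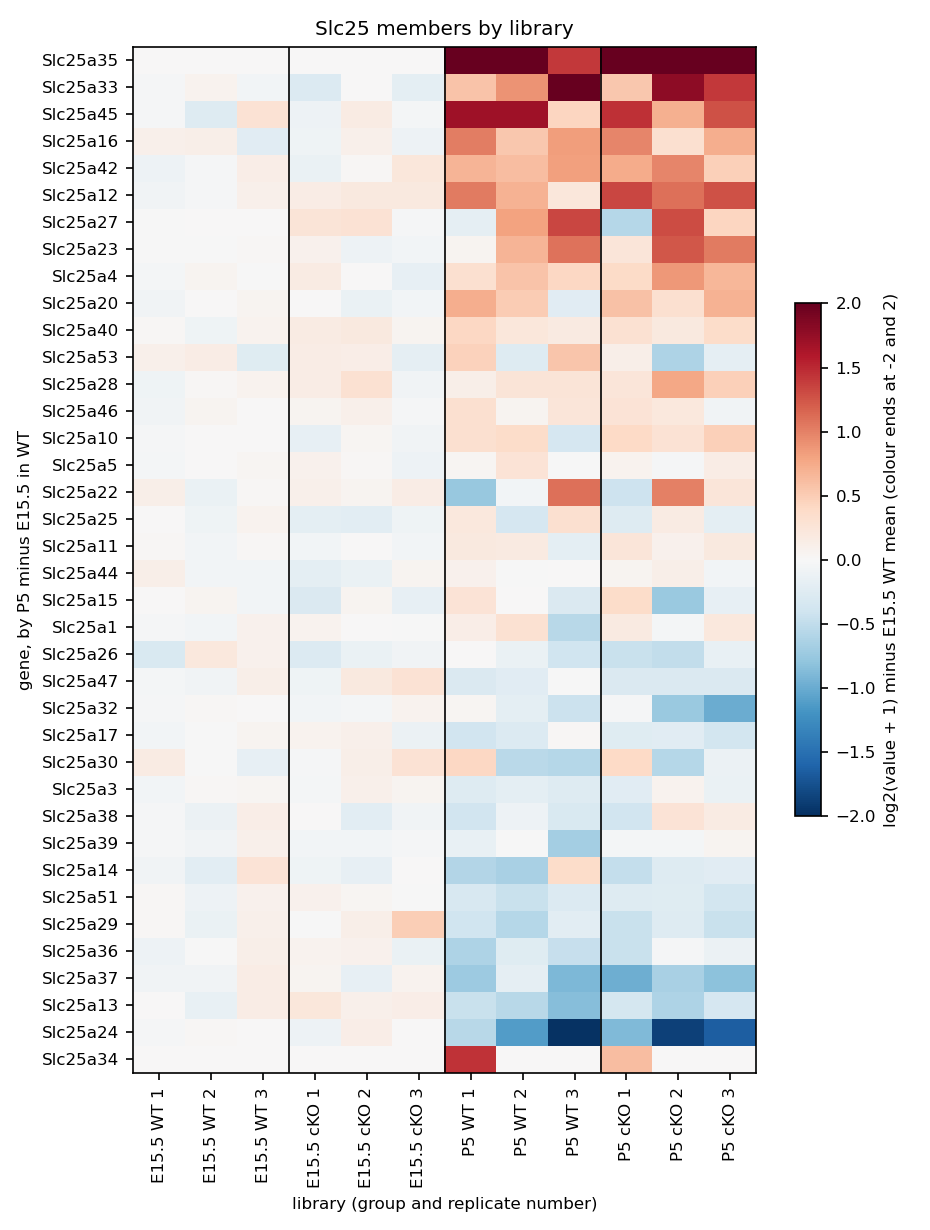
Each of the 38 rows is 1 Slc25 gene, each column 1 library, and the colour is log2(value + 1) minus the mean of the 3 E15.5 WT libraries, with the scale ending at -2 and 2. The rows at the top (Slc25a35, Slc25a33, Slc25a45) are red and Slc25a24 near the bottom is blue in the 6 P5 libraries, while the 6 E15.5 libraries are pale throughout, and Slc25a34, the last row, was not tested.

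**Figure D2:**
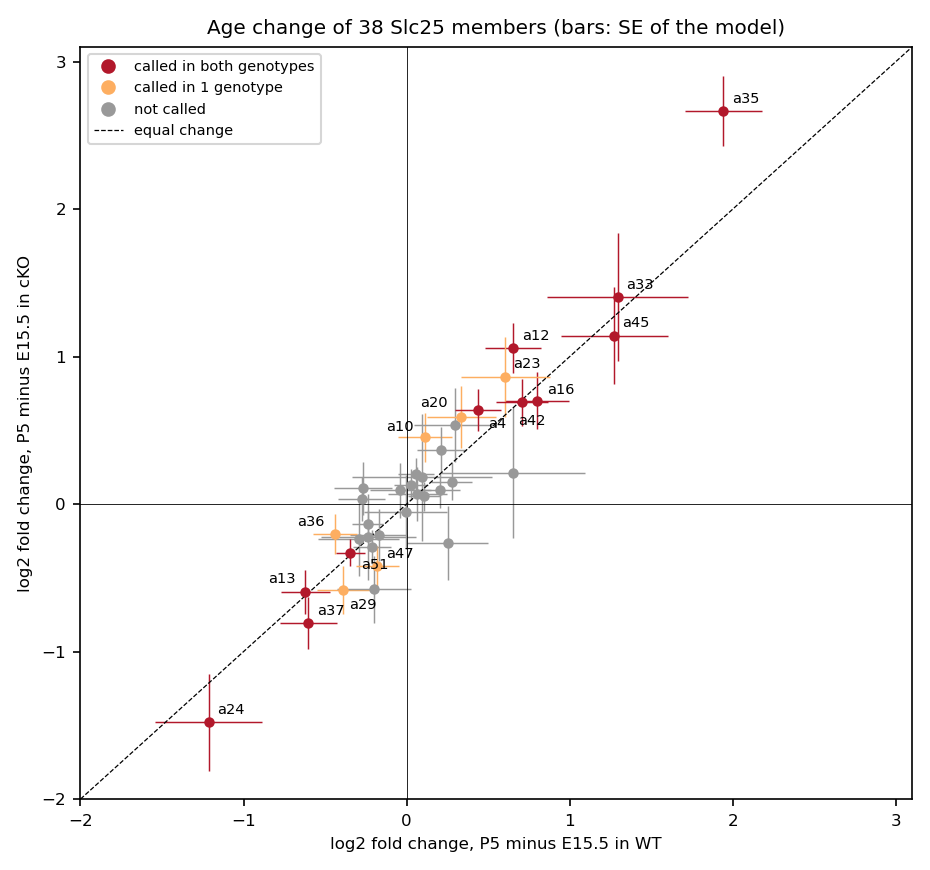
Log2 fold change from E15.5 to P5 in WT (horizontal) and cKO (vertical) for the 38 members tested, with bars of 1 SE. The 11 members called in both genotypes have the same sign in both, from Slc25a24 at the lower left to Slc25a35 at the upper right. Of them Slc25a35 (1.94 in WT and 2.66 in cKO) and Slc25a12 (0.65 and 1.06) lie farthest from the line of equal change, with no interaction called.

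Of 9 carriers of nucleotides 3 rose and 2 fell in WT (median log2 fold change 0.10), and 4 rose and 1 fell in cKO (median 0.07). Of all genes tested 15% rose and 23.2% fell in WT (median -0.07), and 17.6% rose and 26.1% fell in cKO (median -0.08). No role was tested as a set, here or below. Among those of adenine nucleotides the muscle- and heart-type translocase ANT1 rose while ANT2 did not pass. Slc25a4 (ENSMUSG00000031633, chromosome 8, 46206797 to 46211284) had values of 5591.5, 5952 and 5738 in E15.5 WT and 7200.3, 8591 and 7685 in P5 WT, a log2 fold change of 0.44 ± 0.14 (SE, adjusted p = 0.0323) by limma, as for all adjusted p below. In cKO it went from 6455, 5777 and 5132 to 7536, 10557 and 9128, a log2 fold change of 0.64 ± 0.14 (SE, adjusted p = 0.00456). All P5 libraries lay above all E15.5 libraries of the same genotype. The fit with the photoreceptor marker level as a term ended both calls (0.23 in WT and 0.43 in cKO), and without any 1 of the 3 E15.5 WT libraries, or without E15.5 cKO replicate 2 or P5 WT replicate 2, the call in WT was lost. That level was higher in all P5 than in all E15.5 libraries (mean log2 7.35 to 11.7 against 5.67 to 5.72). For every member, a fit with it as a term thus cannot fully separate its part from that of age. Skeletal muscle markers, which share ANT1, summed to 42824 to 81875 at E15.5 and 17987 to 88681 at P5, and their part in the result was not tested beyond a fit with that term, which kept both calls. The lens term (0.40 in WT and 0.55 in cKO) and the cell cycle term (0.044 and 0.27) ended both. Slc25a5 (ENSMUSG00000016319, chromosome X, 36795651 to 36798807) stood at 1937, 2002 and 2042 in E15.5 WT and 2051, 2410.2 and 1992 in P5 WT, a log2 fold change of 0.10 ± 0.10 (SE, adjusted p = 0.416), and at 0.052 ± 0.10 in cKO, with overlapping libraries in both.

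The calcium-regulated ATP-Mg/phosphate carriers moved apart. Slc25a24 (ENSMUSG00000040322, chromosome 3, 109123149 to 109168457), called SCaMC-1, fell in WT from 798, 823 and 817 to 556, 376 and 205, a log2 fold change of -1.21 ± 0.33 (SE, adjusted p = 0.0144). In cKO it fell from 756, 889 and 821 to 441, 221 and 259, a log2 fold change of -1.48 ± 0.33 (SE, adjusted p = 0.00458), the largest fall of the family in both genotypes. The P5 values were ordered against the photoreceptor markers: the libraries with least of that signal, replicate 1 of each genotype, were highest (556 and 441) and those with most, WT replicate 3 and cKO replicate 2, were lowest (205 and 221). With those 2 libraries left out the fall was -0.83 in WT and -1.28 in cKO and still called, and with the photoreceptor term neither was called (-0.12 and -0.34). Its paralogue Slc25a23 (SCaMC-3) had 1205, 1206 and 1234 in E15.5 WT against 1262, 1943 and 2573 in P5 WT, a log2 fold change of 0.60 ± 0.27 (SE, adjusted p = 0.104), and in cKO it rose from 1288, 1132.5 and 1169.7 to 1437, 2880.3 and 2489, 0.86 ± 0.27 (SE, adjusted p = 0.0254). Groups did not overlap in either genotype, but the rise in cKO was lost without P5 cKO replicate 2 or 3 or E15.5 cKO replicate 2 or 3, the lens term ended it (1.22), and its sign turned with the photoreceptor term (-0.046). The third of these carriers, Slc25a25 (SCaMC-2), had log2 fold changes of 0.067 ± 0.18 in WT and 0.068 ± 0.18 in cKO (SE) and was not called.

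Of the other nucleotide carriers, the pyrimidine nucleotide carriers went opposite ways in WT. Slc25a33 (ENSMUSG00000028982, chromosome 4, 149744036 to 149774277), PNC1, was just above the floor at E15.5 with 65.6, 69.7 and 64.1 in WT and 54.8, 66.7 and 57.7 in cKO. At P5 it had 99.1, 124 and 359.5 in WT, a log2 fold change of 1.29 ± 0.43 (SE, adjusted p = 0.0366), and in cKO it had 97.5, 231.5 and 178, with 1.40 ± 0.43 (SE, adjusted p = 0.023) on the log2 scale. Every P5 library was above every E15.5 library, and the highest value, 359.5, was that of P5 WT replicate 3, the library with most photoreceptor signal. Without that library the change in WT was 0.73 and not called, and without both libraries of highest photoreceptor signal it was 0.73 in WT and 1.14 in cKO, both called. The photoreceptor term turned the sign in both genotypes (-0.14 and -0.086), and leaving out any 1 of the 6 E15.5 libraries, the 2-group fit or the skeletal muscle term ended the call in WT. In cKO the call was lost without E15.5 replicate 1 or 3 or P5 replicate 2 or 3. Slc25a36 (PNC2) fell in WT from 1399, 1494 and 1638 to 982, 1272.5 and 1094, -0.44 ± 0.14 (SE, adjusted p = 0.0256), and stood at -0.21 ± 0.14 (SE, adjusted p = 0.242) in cKO. Its call in WT was lost without E15.5 WT replicate 2 or 3 or P5 WT replicate 1, in the 2-group fit and with the cell cycle term.

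Slc25a42, which exchanges coenzyme A and adenine nucleotides, rose in both genotypes. Its values were 105, 109.8 and 122 in E15.5 WT and 181, 172 and 198.5 in P5 WT, a log2 fold change of 0.71 ± 0.16 (SE, adjusted p = 0.00613). In cKO they were 102.5, 114 and 131 at E15.5 and 189, 220.3 and 157 at P5, a log2 fold change of 0.69 ± 0.16 (SE, adjusted p = 0.00599). The groups were apart in both genotypes, and no single library left out ended either call, while the cell cycle term ended both and the photoreceptor term that in cKO. Slc25a17, the adenine nucleotide carrier of peroxisomes, had -0.21 ± 0.12 in WT and -0.29 ± 0.12 in cKO (log2 fold change, SE) and was not called.

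Of the 7 cofactor carriers 1 rose and 1 fell in each genotype (median log2 fold change -0.17 in WT and 0.03 in cKO). Beside them, 15% of all genes rose and 23.2% fell in WT, and 17.6% and 26.1% in cKO (medians -0.07 and -0.08). Slc25a16, linked to the uptake of coenzyme A, rose from 198, 199.8 and 157.5 to 375, 268 and 329.6 in WT, a log2 fold change of 0.80 ± 0.20 (SE, adjusted p = 0.00862), and this call held under all 26 alternatives. In cKO Slc25a16 went from 174, 197 and 172 to 364, 229 and 305, a log2 fold change of 0.70 ± 0.20 (SE, adjusted p = 0.0145), which was not called with library weights or the lens term. Slc25a51, the NAD+ carrier, fell from 1048, 964 and 1098.5 to 829.8, 761 and 859 in WT, -0.34 ± 0.09 (SE, adjusted p = 0.0122), and from 1102, 1060.2 and 1027 to 864, 878 and 799 in cKO, -0.33 ± 0.09 (SE, adjusted p = 0.0135). Its groups did not overlap, although the size is small, and the calls were lost without E15.5 WT replicate 3 in WT and without P5 cKO replicate 3 in cKO. The cell cycle term ended both, the 2-group fit that in WT, and library weights and the lens term (-0.18) that in cKO. The glutathione importers Slc25a39 and Slc25a40 had log2 fold changes of -0.28 ± 0.15 and 0.28 ± 0.13 in WT and 0.035 ± 0.15 and 0.15 ± 0.13 in cKO, none called. The carriers of S-adenosylmethionine (Slc25a26, -0.17 ± 0.18 in WT and -0.21 ± 0.18 in cKO) and of folate and flavin (Slc25a32, -0.20 ± 0.23 and -0.58 ± 0.23) were not called either.

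Among the carriers of phosphate and iron, the iron importer of blood-forming cells fell. Slc25a37 (ENSMUSG00000034248, chromosome 14, 69241848 to 69285112), mitoferrin-1, which supplies iron for haem, went from 702, 706 and 815 in E15.5 WT to 447, 649 and 397 in P5 WT, a log2 fold change of -0.60 ± 0.17 (SE, adjusted p = 0.0202). In cKO it went from 771.5, 662 and 775.5 to 375, 472 and 417, a log2 fold change of -0.81 ± 0.17 (SE, adjusted p = 0.00406). All P5 libraries were lower than all E15.5 libraries of the same genotype. The 9 erythroid markers, which include the haem enzyme gene Alas2, were lower at the same time. Of them 7 of 9 fell in WT and 8 of 9 in cKO, beside 23.2% and 26.1% of all genes, and their part in the result was not tested. The call in WT was lost without E15.5 WT replicate 3 or P5 WT replicate 1, with library weights (-0.20), in the 2-group fit and with the photoreceptor term (-0.57). The cell cycle term ended it in WT (-0.41) and in cKO (-0.63). Slc25a28, mitoferrin-2 of other tissues, had 0.21 ± 0.15 in WT and 0.37 ± 0.15 in cKO, and the phosphate carrier Slc25a3 -0.24 ± 0.09 and -0.13 ± 0.09, with no call.

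None of the 4 carriers of carboxylates and acylcarnitine tested passed in WT (median log2 fold change 0.09), and 2 rose in cKO (median 0.33). Beside them, 38.2% of all genes were called in WT, and 17.6% rose in cKO (medians -0.07 and -0.08). Slc25a20, which brings acylcarnitine in for fatty acid oxidation, had 355, 375 and 388 in E15.5 WT and 618, 529 and 318 in P5 WT, 0.34 ± 0.21 (SE, adjusted p = 0.233), where P5 WT replicate 3 fell under the E15.5 range. In cKO it rose from 374, 338 and 359.5 to 557, 464 and 604.5, 0.59 ± 0.21 (SE, adjusted p = 0.0425). The dicarboxylate carrier Slc25a10 went from 467, 542 and 499.8 to 695, 642 and 728 in cKO, 0.45 ± 0.17 (SE, adjusted p = 0.0458), and had 0.12 ± 0.17 (SE, adjusted p = 0.604) in WT. Both calls in cKO are close to the threshold: with the replicate number as a block the adjusted p was 0.0568 for Slc25a20 and 0.0601 for Slc25a10 (range over all alternatives 0.00061 to 0.924 and 0.00148 to 0.84), and leaving out any 1 of 8 libraries for Slc25a20, or of 9 for Slc25a10, ended them. The skeletal muscle term ended both, and library weights (0.36) and a fit with no variance trend that of Slc25a10. Both also lost their direction with the lens marker level as a term (-0.044 and -0.067). Lens markers summed to 926 to 1759 at E15.5 and 781 to 12654 at P5. The citrate carrier Slc25a1 (-0.039 ± 0.19 in WT and 0.094 ± 0.19 in cKO) and the oxoglutarate carrier Slc25a11 (0.059 ± 0.11 and 0.20 ± 0.11) were not called.

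The aspartate/glutamate carriers, which drive the malate-aspartate shuttle and are regulated by calcium, moved in opposite directions. Slc25a12 (ENSMUSG00000027010, chromosome 2, 71271063 to 71367749), aralar, the form of brain and muscle, rose in WT from 524, 539.8 and 589.8 to 1135, 895 and 642, a log2 fold change of 0.65 ± 0.17 (SE, adjusted p = 0.0122). In cKO it rose from 609, 629 and 631 to 1386, 1187 and 1334, a log2 fold change of 1.06 ± 0.17 (SE, adjusted p = 0.000763). Every P5 library of either genotype was above every E15.5 library. Slc25a13 (ENSMUSG00000015112, chromosome 6, 6041218 to 6217173), citrin, the form of liver, fell in WT from 234, 211 and 258 to 171, 159 and 129, -0.62 ± 0.15 (SE, adjusted p = 0.00841). In cKO it fell from 275, 252 and 257 to 183, 152 and 184, -0.59 ± 0.15 (SE, adjusted p = 0.00902), again with no overlap. The 2-group fit ended the call of Slc25a12 in WT, and the lens term that in cKO. The photoreceptor term raised the change of Slc25a12 to 1.13 in WT and 1.55 in cKO and ended the calls of Slc25a13 (-0.34 and -0.30), while leaving out any single library ended none of the 4 calls.

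The upstream windows of these 2 genes and of Slc25a33, the 250 bases before the RefSeq start site (GRCm38.p6, 5′ to 3′ on the gene's strand), are printed because the 3 genes changed with age in different directions. Capitals mark the E-box CACGTG, the CCAAT box and ACAATGG, a match to the SOX motif. The windows are chr2:71367756-71368005, minus strand for Slc25a12, chr6:6217174-6217423, minus strand for Slc25a13 and chr4:149774268-149774517, minus strand for Slc25a33.
Slc25a12: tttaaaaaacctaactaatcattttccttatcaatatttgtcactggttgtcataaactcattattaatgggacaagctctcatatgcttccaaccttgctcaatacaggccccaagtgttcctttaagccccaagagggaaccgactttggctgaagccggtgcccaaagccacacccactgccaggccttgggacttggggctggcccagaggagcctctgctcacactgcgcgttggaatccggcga
Slc25a13: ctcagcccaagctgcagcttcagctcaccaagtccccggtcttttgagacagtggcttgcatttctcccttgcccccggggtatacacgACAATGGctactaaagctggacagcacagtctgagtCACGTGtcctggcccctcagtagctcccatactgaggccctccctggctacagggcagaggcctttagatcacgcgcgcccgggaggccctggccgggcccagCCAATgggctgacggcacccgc
Slc25a33: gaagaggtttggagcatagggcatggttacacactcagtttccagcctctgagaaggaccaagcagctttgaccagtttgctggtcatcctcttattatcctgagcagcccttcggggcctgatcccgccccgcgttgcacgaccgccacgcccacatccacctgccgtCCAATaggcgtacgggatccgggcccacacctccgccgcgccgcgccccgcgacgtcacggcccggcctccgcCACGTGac
The window of Slc25a13 held 1 E-box, 1 CCAAT box and 1 ACAATGG, that of Slc25a33 1 E-box and 1 CCAAT box, and that of Slc25a12 none of the motifs searched. Slc25a12 also had the lowest share of G and C of the 3, 49.6%, against 62.8% in Slc25a13 and 64.4% in Slc25a33. Of the 30 members with a promoter in the table, 5 held CACGTG on either strand, beside 8.11% of 13111 promoters of genes tested and 6.02% of all 32851. CCAAT stood in 15 of 30 (34.8% of the promoters of genes tested, 33.8% of all) and ACAATGG in Slc25a13 alone of the members (1.68%, 3.02% of all). AAGGTCA, read by the ERR receptors, stood in 1 (2.72%, 4.08% of all), and the palindromic motif of NRF1 (1.52%, 0.782% of all) and TAATCC of OTX2 and CRX (5.11%, 6.25% of all) in 0. No motif searched contains another. The median share of G and C was 60.4% in the members and 60.0% in the promoters of genes tested.

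Of the other 5 amino acid carriers 1 was called, in cKO, beside 38.2% of all genes called for age in WT and 43.7% in cKO. It was Slc25a29, of arginine and lysine, which fell there from 78.5, 85 and 112 to 57.5, 65.7 and 57.8, -0.58 ± 0.16 (SE, adjusted p = 0.0143), and in WT had -0.39 ± 0.16 (SE, adjusted p = 0.0813), at levels close to the floor. The call in cKO was lost without E15.5 cKO replicate 3 or P5 cKO replicate 3, with library weights (-0.50) and with the lens term (-0.21). The glutamate carrier Slc25a22 (0.10 ± 0.43 in WT and 0.18 ± 0.43 in cKO), the ornithine carrier Slc25a15 (-0.0052 ± 0.25 and -0.054 ± 0.25), the glycine carrier Slc25a38 (-0.27 ± 0.18 and 0.11 ± 0.18) and Slc25a44, of branched-chain amino acids (0.028 ± 0.10 and 0.13 ± 0.10), were not called. Slc25a44 was among the steadiest members, with 609, 541 and 545 in E15.5 WT and 599.6, 561.5 and 565 in P5 WT.

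The carriers with no settled substrate held the largest rise of the family. Slc25a35 (ENSMUSG00000018740, chromosome 11, 68968131 to 68974365) was at the floor of 50 in all 6 E15.5 libraries and at 231, 239 and 134.5 in P5 WT and 237, 386 and 366 in P5 cKO. It was at least 4.03-fold higher at P5 in WT and at least 6.59-fold higher in cKO (log2 fold change on the floored scale 1.94 ± 0.24 (SE, adjusted p = 0.000178) and 2.66 ± 0.24 (SE, adjusted p = 2.49e-05)). None of the 25 alternatives with a value ended either call, but all of them kept the floored E15.5 values and so add no support. The gene passed the filter only through its 6 P5 libraries. Its SD of 0 at E15.5 is set by the floor and lowers the SE, so these adjusted p may be too small. The count may also include reads of Rangrf, which overlaps it on the opposite strand and is not analysed here. Slc25a45 rose from 60.3, 50.9 and 74.7 to 201, 199.8 and 82.8 in WT, 1.27 ± 0.33 (SE, adjusted p = 0.0115), and from 57.3, 68.4 and 59.7 to 170.3, 101 and 150.2 in cKO, 1.14 ± 0.33 (SE, adjusted p = 0.0171). In both genotypes its lowest P5 value was that of the library with most photoreceptor signal, and the call in cKO was lost without replicate 1 or 3 of either age and with the lens term (0.11). The 2-group fit ended the call in WT. Slc25a47 fell in cKO from 57.8, 70.1 and 74.8 to 50 in all 3 libraries, -0.42 ± 0.13 (SE, adjusted p = 0.0265), at least 1.35-fold, and its call was lost without cKO replicate 2 or 3 of either age. Library weights, the cell cycle term and the lens term (-0.19) also ended it. Slc25a46, which sits in the outer membrane and acts on mitochondrial shape, had 0.21 ± 0.12 in WT and 0.094 ± 0.12 in cKO, and Slc25a53 0.25 ± 0.25 and -0.26 ± 0.25, with no call. Slc25a34 was above the floor in 2 libraries, P5 WT replicate 1 (138) and P5 cKO replicate 1 (77.1), and was not tested. These 2 libraries had the lowest photoreceptor signal of the 6 at P5.

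Of the carriers related to the uncoupling proteins, none of 3 passed at any age or genotype. Of all genes 38.2% were called for age in WT and 43.7% in cKO. Slc25a27 (UCP4), a neuronal form, had 201.5, 204 and 204 in E15.5 WT and 179, 355 and 514 in P5 WT, 0.65 ± 0.44 (SE, adjusted p = 0.268), with P5 libraries on both sides of the E15.5 range. Slc25a14 (UCP5) had -0.29 ± 0.25 in WT and -0.24 ± 0.25 in cKO, and Slc25a30 (KMCP1) -0.23 ± 0.29 and -0.22 ± 0.29, both near the floor.

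Within a library, the balance between related carriers changed with age in all 8 comparisons of paralogues made. The share of other gene pairs that shift was not computed, and 49.4% of all genes tested were called for age in at least 1 genotype. The 8 are therefore not shown to differ from other pairs, and those among Slc25a23, Slc25a24 and Slc25a25 are not independent. The log2 ratio of Slc25a12 to Slc25a13 was 1.16 to 1.35 in E15.5 WT, 1.15 to 1.32 in E15.5 cKO, 2.31 to 2.73 in the P5 WT libraries and 2.85 to 2.95 in those of P5 cKO, a mean shift of 1.46. That of Slc25a4 to Slc25a5 was at most 1.60 in the E15.5 libraries and at least 1.81 in the P5 libraries, a mean shift of 0.46. Slc25a28 over Slc25a37 shifted by 0.996, with means of -1.16 and -1.03 in E15.5 WT and cKO and of -0.35 and 0.15 at P5. For these 3 pairs and for Slc25a23 over Slc25a24 (2.08), Slc25a25 over Slc25a24 (1.41) and Slc25a33 over Slc25a36 (1.67), an exact permutation test of age within genotype gave p = 0.005, the smallest it can give with 400 splits, and an adjusted p of 0.00667 over the 8. Slc25a23 over Slc25a25 (0.67, adjusted p = 0.025 by the same exact test) and Slc25a40 over Slc25a39 (0.34, adjusted p = 0.0114, exact) shifted less. A ratio shows unequal change, not which of the genes changed. At P5 Slc25a23 over Slc25a24 was 1.18 and 1.70 in WT and cKO replicate 1, the libraries of least photoreceptor signal. In those of most, WT replicate 3 and cKO replicate 2, it was 3.64 and 3.70. In WT replicate 3 Slc25a33 over Slc25a36 was highest at P5, -1.60, and Slc25a12 over Slc25a13 lowest, 2.31. No marker term was fitted to the ratios, so the part of this signal was not tested. None of the 8 ratios was called for genotype, tested over both ages (lowest adjusted p = 0.26 by the exact permutation test, for Slc25a12 over Slc25a13 with a shift of 0.21 and Slc25a28 over Slc25a37 with 0.32). At P5 alone, where the genotypes were not tested, those 2 of the 8 ratios did not overlap: Slc25a28 over Slc25a37 was -0.72 to -0.013 among the WT and 0.05 to 0.25 among the cKO libraries. Of all single genes tested 6.18% did not overlap at P5, and no such share was set for ratios. These 2 were singled out by their values, and 3 against 3 libraries give an exact permutation p of 0.1 at best. Slc25a18, the close relative of Slc25a22, is not analysed here.

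**Figure D3:**
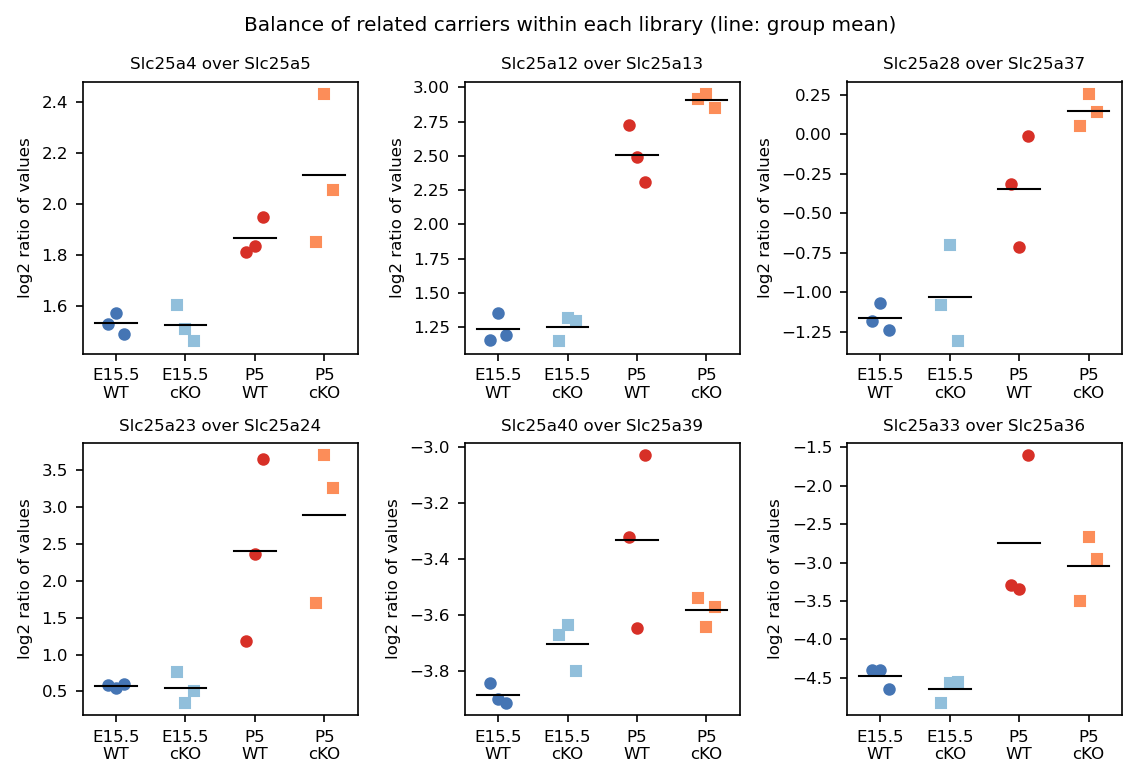
Log2 ratio of the values of 6 pairs of related carriers, 1 point per library and a line at each group's mean. For Slc25a12 over Slc25a13 all P5 libraries lie above 2.31 or at it and all E15.5 libraries at 1.35 or below, while Slc25a40 over Slc25a39 shows only a small shift with the lowest P5 libraries (-3.65 in WT and -3.64 in cKO) below the highest E15.5 library (-3.63).

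The 3 P5 libraries of a genotype disagreed more than those of E15.5, and some members followed the photoreceptor signal. The median SD of the members on the log2 scale was 0.08 in E15.5 WT and 0.10 in E15.5 cKO, but 0.28 in P5 WT and 0.22 in P5 cKO. Over all genes tested it was 0.11, 0.12, 0.32 and 0.23 in the same order. Ordered by the mean log2 value of the 15 photoreceptor markers, the P5 libraries were WT replicate 1 (7.35), cKO replicate 1 (7.37), WT replicate 2 (8.64), cKO replicate 3 (9.79), cKO replicate 2 (10.8) and WT replicate 3 (11.7). In that order Slc25a22 had 289, 371, 475, 579.8, 995 and 1059, so that the 2 libraries of least signal were under and the 3 of most above the E15.5 range of 447 to 543. Slc25a33 had 99.1, 97.5, 124, 178, 231.5 and 359.5, and Slc25a27 179, 137, 355, 275, 501 and 514. Slc25a24 went the other way with 556, 441, 376, 259, 221 and 205. These members were chosen after seeing their values, and how many other members or genes follow such an order was not counted. These orders describe 6 libraries of 2 genotypes that also differ in other markers, whose part was not tested: inner retinal neuron markers (15 genes) summed to 3208 to 25616, endothelial markers (10 genes) to 12659.5 to 33989.9 and RPE markers (14 genes) to 119846 to 225432.

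**Figure D4:**
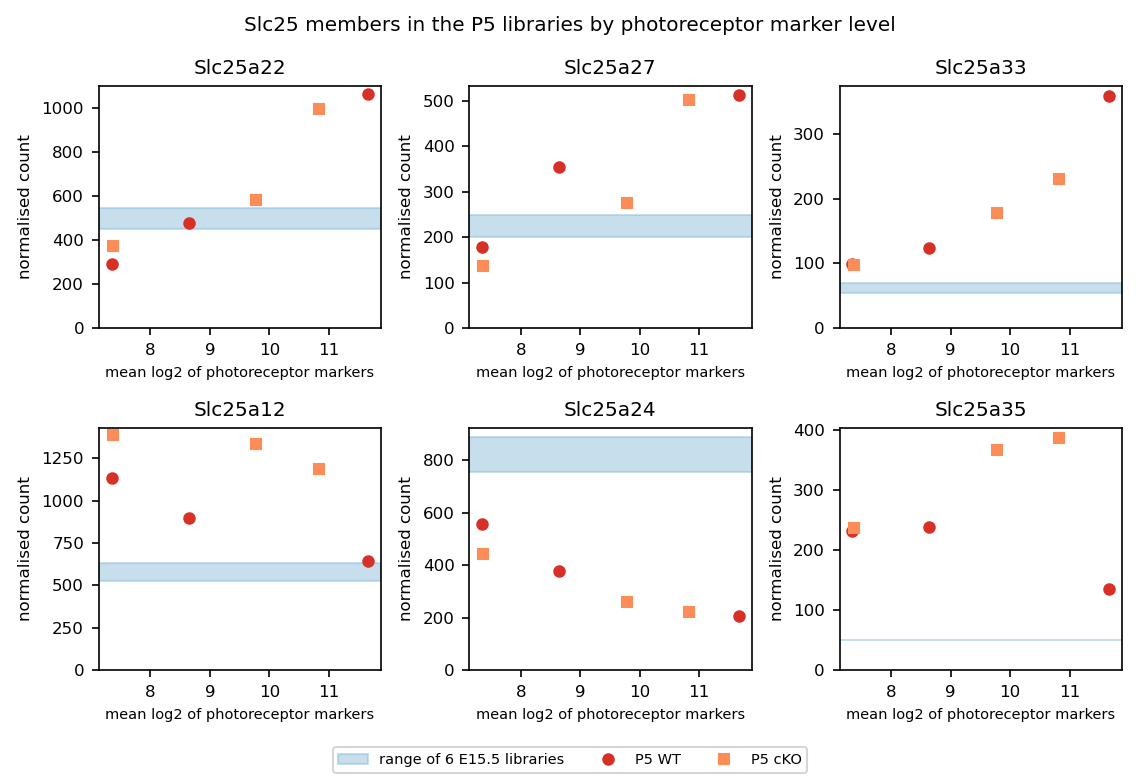
Normalised count of 6 members in the 6 P5 libraries (vertical) against the mean log2 value of 15 photoreceptor markers (horizontal), with the range of the 6 E15.5 libraries as a band. Slc25a22, Slc25a27 and Slc25a33 are highest in the 2 libraries of most photoreceptor signal, Slc25a24 is lowest there, and Slc25a12 is higher in every P5 cKO library (1187 to 1386) than in every P5 WT library (642 to 1135).

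Between cKO and WT no carrier was called at either age. At E15.5 limma called 0 of 38 members, beside 0.00739% of all genes, with 0 at an unadjusted p under 0.05, beside 0.362%. At P5 it called 0 of 38, beside 0.244% of all genes, with 2 at an unadjusted p under 0.05 (Slc25a12 and Slc25a35), beside 7.68%. The median log2 fold change of the members was 0.01 at E15.5 and 0.02 at P5, against 0 and -0.02 over all genes, and their range was -0.17 to 0.20 at E15.5 and -0.48 to 0.72 at P5. With a median SE of 0.18, differences of small size were not detectable in these data. The fit uses 1 variance per gene for all 4 groups, so this SE is the same at both ages. The median SD of the members was 0.08 and 0.10 at E15.5 but 0.28 and 0.22 at P5 (WT and cKO). P-values for genotype thus tend to be too high at E15.5 and too low at P5. In the fit of the 2 P5 groups alone the SE was 0.23 for Slc25a12 and 0.33 for Slc25a35, not 0.17 and 0.24.

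The aspartate/glutamate carrier Slc25a12 was the 1 member of 38 whose genotypes did not overlap at E15.5, and again the 1 at P5, a share under the 5.1% and 6.18% of all genes, and it was not called. At E15.5 it had 524, 539.8 and 589.8 in WT and 609, 629 and 631 in cKO, a difference of 0.18 ± 0.17 (SE, adjusted p = 1) on the log2 scale. At P5 it had 1135, 895 and 642 in WT and 1386, 1187 and 1334 in cKO, which is 0.58 ± 0.17 (SE, adjusted p = 0.37) on the log2 scale, with an exact permutation p of 0.1, the smallest 3 against 3 can give. Markers of other tissues leaned to either side at P5. In cKO 14 of 14 skeletal muscle markers were higher (median log2 difference 0.91, summed value 17987 to 82221 in WT against 36128 to 88681). So were 13 of 14 lens markers (median 1.87, 781 to 7344 against 6395 to 12654). Of them 1 and 9 had an unadjusted p under 0.05 in limma, 0 and 1 did not overlap, and 0 were called. Lower in cKO were 10 of 10 endothelial markers (median -0.37) and 6 of 9 astrocyte and Müller glia markers (median of the 9 -0.40). Of these lists 2 and 5 had an unadjusted p under 0.05 in limma, 1 and 3 did not overlap, and 0 were called. With the lens term the difference of Slc25a12 was 0.36, adjusted p = 0.578, and with the skeletal muscle term 0.40, adjusted p = 0.691 (limma). Its lowest value in any of the 26 alternatives was 0.36, and its highest 0.78. With the photoreceptor term the difference at P5 was 0.60, adjusted p = 0.0165, and with the cell cycle term 0.51, adjusted p = 0.0298 (limma), the 2 of 26 alternatives in which it was called (adjusted p over all 26 from 0.0165 to 1). In the P5 libraries of lowest photoreceptor signal, 7.35 and 7.37, it had 1135 in WT and 1386 in cKO.

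The other members with the largest differences did not separate the genotypes. At P5 Slc25a35 had 231, 239 and 134.5 in WT and 237, 386 and 366 in cKO, a difference of 0.72 ± 0.24 (SE, adjusted p = 0.447) on the log2 scale, or 0.32 without both libraries of highest photoreceptor signal, where the libraries of lowest signal had 231 and 237. Slc25a53 had 127, 77 and 135 in WT and 99.3, 59.6 and 81.4 in cKO, -0.48 ± 0.25 (SE, adjusted p = 0.711), and Slc25a32 120.1, 101 and 85.9 in WT and 115, 69.1 and 57.8 in cKO, -0.39 ± 0.23 (SE, adjusted p = 0.74). At E15.5 the 3 largest beside Slc25a12 all had an adjusted p of 1 in limma and overlapping libraries. They were Slc25a29, with 79.8, 71.9 and 84.8 in WT and 78.5, 85 and 112 in cKO (0.20 ± 0.16), Slc25a27, with 201.5, 204 and 204 and 243, 248.6 and 201 (0.18 ± 0.44), and Slc25a25, with 281, 261.5 and 294 and 242, 239 and 262 (-0.17 ± 0.18).

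The rest of the carrier system was described by counts of genes called for age, and no list was tested as a set. Of all genes tested, 15% rose and 23.2% fell in WT, and 17.6% rose and 26.1% fell in cKO. Of 10 genes of the import machinery tested, 0 rose and 2 fell in WT, and 0 rose and 3 fell in cKO: Timm22, the pore that inserts carriers, had -0.57 ± 0.19 in WT and -0.58 ± 0.19 in cKO (log2 fold change, SE), the receptor Tomm70a -0.53 ± 0.17 and the TIM22 subunit Agk -0.46 ± 0.17 in cKO and the outer pore Tomm40 -0.38 ± 0.12 in WT. The median was -0.33 in WT and -0.16 in cKO. Of 16 other mitochondrial transporters 4 rose and 2 fell in WT, and 5 rose and 2 fell in cKO (medians 0.12 and 0.12). The pyruvate carrier subunit Mpc1 rose by 0.98 ± 0.14 in WT and 0.84 ± 0.14 in cKO, Sfxn3 by 0.69 ± 0.08 and 0.80 ± 0.08, while the calcium uniporter Mcu had -0.67 ± 0.13 and -0.57 ± 0.13 and the serine carrier Sfxn1 -0.49 ± 0.16 and -1.04 ± 0.16, all called. The porins Vdac1, Vdac2 and Vdac3 were not called in either genotype. Of the 3 family members under other names tested, the uncoupling protein Ucp2 (0.64 ± 0.34 in WT and 1.16 ± 0.34 in cKO) and Mtch1 (0.20 ± 0.14 and 0.45 ± 0.14) were called as rises in cKO, and Mtch2 in neither; the differences between genotypes were not called.

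Enzymes that work with the carriers were counted in the same way. The shares of all genes beside them are again 15% rises and 23.2% falls in WT, and 17.6% and 26.1% in cKO. Of 15 citric acid cycle genes 4 rose and 1 fell in WT, and 6 rose and 1 fell in cKO, among them Suclg1 (0.32 ± 0.11 and 0.69 ± 0.11) and Ogdh (0.38 ± 0.10 and 0.52 ± 0.10), while Dlst fell (-0.35 ± 0.09 and -0.34 ± 0.09). The medians were 0.15 and 0.14. Of 20 partner enzymes 1 rose and 0 fell in WT, and 2 rose and 3 fell in cKO (medians 0.08 and 0.17). The falls in cKO were those of Alas2 (-1.95 ± 0.41), also an erythroid marker, Mthfd2 of folate metabolism (-1.09 ± 0.27) and the citrate lyase Acly (-0.81 ± 0.27). The rise in WT was that of Cpt1a, which makes the acylcarnitine that Slc25a20 imports, at 1.68 ± 0.13 in WT and 1.79 ± 0.13 in cKO. Of the shuttle enzymes that work with Slc25a12, Got2 had 0.037 ± 0.10 in WT and rose by 0.45 ± 0.10 in cKO, while Got1 (0.52 ± 0.23 and 0.46 ± 0.23) and Mdh1 (0.084 ± 0.14 and 0.38 ± 0.14) were not called. Of 9 regulators of mitochondrial biogenesis 1 rose and 4 fell in WT, and 2 rose and 4 fell in cKO (medians -0.29 and -0.42): the coactivator Ppargc1a rose (0.91 ± 0.22 and 1.01 ± 0.22), and the mitochondrial transcription factors Tfam (-0.43 ± 0.11 and -0.43 ± 0.11) and Tfb1m (-1.05 ± 0.14 and -0.86 ± 0.14) and the coactivator Pprc1 (-1.40 ± 0.20 and -1.12 ± 0.20) fell, as did Gabpa. For genotype, 0 genes of these lists were called at E15.5 or at P5.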

How the data were processed

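RPE of Sox9 cKO and WT mice at E15.5 and P5 was profiled by polyA RNA sequencing, 3 libraries per group, grouped by titles. Per the submitters' processing notes, TopHat2 2.0.10, HTSeq and the mm10 genome were used. The authors deposited a table of signal values, which its name calls quantile-normalised counts with a floor of 50. All 12 columns held the same sorted values, 1376 of them (9.87%) at the floor. The sources used here do not give depth, annotation or strand, so no counting error is given.

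Genes with 3 or more of 12 libraries above the floor (13523 of 13942, 38 of 39 members) were taken as log2(value + 1), so that fold changes of low genes are understated, and fitted with limma 3.58.1 in R 4.3.3: 4 group means over 12 libraries, eBayes with trend, two-sided, Benjamini-Hochberg over all genes tested, called at an adjusted p under 0.05. The fit was also run on simulated data with independent noise and the same SD in all groups. Since the real spread was larger at P5 than at E15.5, that run does not show how the fit does on these libraries. Exact permutation tests are two-sided. Positions come from GENCODE M21 (13927 genes matched by identifier) and promoters from RefSeq (GRCm38.p6). Levels per kb use the union of exons of coding transcripts.

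Members, lists and tests were chosen with earlier results of these data known. Library values are printed for members called for age (up to the 8 largest rises and falls per genotype) or among the 4 largest genotype differences, and for some others chosen after seeing their values. Lists name up to 3 genes a comparison. 1 member and 1 list gene are counted but not reported here by name. Alternatives were pseudocounts, filters, library weights, no trend, fits of 2 groups, marker terms, the replicate number as a block and leaving out libraries. Libraries with the same replicate number were not shown to be paired (correlations of deviations from the group means between WT and cKO -0.02, 0.27 and -0.02 at E15.5 and 0.78, -0.30 and 0.19 at P5).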

Additional observations from a re-analysis of the deposited data

How the results depend on the processing

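In every alternative run 0 members were called for genotype or interaction, save that Slc25a12 at P5 made 1 rise with the photoreceptor term and 1 with the cell cycle term. Beside 7 rises in WT there were 3 where genes needed a mean of at least 4 times the floor and 4 in the fit of the 2 groups alone, while library weights gave 17. Beside 5 falls in WT there were 2 in the 2-group fit, 10 with library weights, 8 with the photoreceptor term and 9 without both P5 libraries of highest photoreceptor signal. Beside 10 rises in cKO there were 6 with the higher mean and 3 with the lens term, and beside 6 falls 3 with library weights. Leaving out single libraries gave 5 to 8 rises and 2 to 8 falls in WT and 5 to 11 rises and 3 to 8 falls in cKO. The lowest counts came without E15.5 WT replicate 3 (2 falls), without P5 WT replicate 1 (3 falls), without E15.5 cKO replicate 1 (6 rises) or 3 (5 rises) and without P5 cKO replicate 3 (5 rises and 3 falls), and the 8 falls in WT without P5 WT replicate 3. The cause of these shifts was not tested.

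The sign of the age change turned with the cell cycle term, chosen after seeing the data, for Slc25a24 (1.12 in WT and 0.70 in cKO), Slc25a13 (0.094 and 0.071), Slc25a33 (-1.87 and -1.55) and Slc25a23 in cKO (-0.82). Of these, Slc25a24 in WT and Slc25a33 in both genotypes were called with the turned sign. The cell cycle term cannot be separated from age, so these calls show no direction of change. It turned with the photoreceptor term for Slc25a33 (-0.14 and -0.086) and Slc25a23 in cKO (-0.046), and with the lens term for Slc25a10 (-0.067) and Slc25a20 (-0.044) in cKO. Leaving out both P5 libraries of highest photoreceptor signal, also chosen after seeing the data, left the shift of Slc25a23 over Slc25a25 at 0.58 (adjusted p = 0.05 by the exact permutation test). With the replicate number as a block, 7 members rose and 5 fell in WT, and 8 rose and 6 fell in cKO. The libraries share only a number, since 3 of 6 same-numbered correlations between WT and cKO were under 0. The depth behind the values is unknown.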
